A study of Mus musculus with 6 samples.

Results

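Arterial and arteriolar endothelial cells line the vessels that carry blood into the heart muscle. They were followed here in single-cell RNA sequencing of mouse heart cells other than cardiomyocytes, sampled after a sham operation or after ligation of the left anterior descending (LAD) coronary artery. A cell was a member if it carried at least 3 UMIs (unique molecular identifiers, 1 for each captured transcript) of the endothelial genes Cdh5, Egfl7 and Esam together, and at least 2 UMIs of the arterial genes Hey1, Sema3g and Stmn2 together. It could hold at most 1 UMI of Apln and Pgf, at most 1 of Col1a2 and Csf1r, and none of Npr3, Prox1 or Mmrn1. These limits were set to leave out angiogenic, fibroblast, macrophage, endocardial and lymphatic cells. Members numbered 1732 of the 30014 cells that had at least 1000 UMIs, at least 200 genes and at most 20% mitochondrial UMIs, out of 34940 deposited cells.

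The 6 libraries were 1 for each genotype and condition, each made from the pooled cells of 4 male mice aged 8 to 12 weeks. Wild-type (WT) mice were of the strain C57BL/6JRj, and knockout (KO) mice were of the strain B6.Cg-Trpm4tm1.2-PG, which lacks Trpm4, a cation channel opened by intracellular calcium. Both genotypes were sampled 24 h after sham, 24 h after ligation and 72 h after ligation, with no sham at 72 h. The hearts were digested with thermolysin and papain, and live cells were sorted with Calcein-AM and DAPI. When 6 values are given in a row, they follow the order WT sham, KO sham, WT ligation 24 h, KO ligation 24 h, WT ligation 72 h and KO ligation 72 h. Levels are in CPM, the UMIs of a gene for each 1000000 UMIs summed over the cells of a set in 1 library. They do not depend on gene length in this 3′ assay, but genes can be captured with different efficiency.

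As background, arterial identity is set up by VEGF and Notch signalling, in which ligands such as Dll4 and Jag1 on 1 cell activate Notch receptors on its neighbour, and the nuclear partner Rbpj then switches on targets such as Hey1. The transcription factor Sox17 acts in the same programme. Mature arterial endothelium is known for gap junctions built from connexins, for an elastic wall, and for genes that answer to fast, laminar flow such as Klf2 and Klf4. Capillary endothelium of the heart instead takes up fatty acids, with Cd36, Fabp4, Lpl and its anchor Gpihbp1.

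The members numbered 556, 830, 142, 140, 37 and 27 in the 6 libraries, so the values at 72 h rest on few cells. Among the members, 1336 had a UMI of Stmn2, which encodes a tubulin-binding protein best known from neurons, 921 had one of Hey1, a Notch-induced repressor, and 854 had one of Sema3g, a secreted semaphorin. All 3 genes were seen in 338 members, while 461 had Stmn2 alone, 129 Hey1 alone and 101 Sema3g alone. The members were selected on the UMI counts of these 3 genes and of the endothelial and excluded genes named above, so these values are a description only. Stmn2 stood at 742, 556, 316, 578, 723 and 583 CPM, Hey1 at 233, 216, 183, 216, 105 and 133 CPM, and Sema3g at 213, 206, 310, 230, 74.2 and 98.2 CPM. Stmn2 was lowest in WT at 24 h after ligation, where Sema3g was highest.

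Just inside the limit were 522 members with exactly 2 arterial UMIs, and just outside it were 1040 cells with 1. Some genes that the rule did not use rose stepwise with the number of arterial UMIs in the pooled cells. Sox17 had 122 CPM at 0 arterial UMIs, 188 at 1, 227 at 2 and 348 at 3 or more. Fbln5, an elastic fibre protein, had 5.86, 21.2, 44.5 and 201 CPM in the same order. Gja5, the gene of connexin 40, had 0.370, 4.01, 4.40 and 44.8 CPM. Gja4, the gene of connexin 37, did not follow the steps, with 27.9, 18.2, 27.3 and 126 CPM. Members with exactly 2 UMIs therefore had levels of Fbln5, Gja5 and Gja4 far below those with 3 or more, although they were counted alike.

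The median member had 3899, 4036.5, 4905.5, 3214, 4169 and 3218 UMIs, against 3234.5, 3381, 3823.5, 2844, 2949 and 1767.5 in arterial-marker-negative endothelial cells, which passed the same limits with 0 UMIs of Hey1, Sema3g and Stmn2. Pairs of libraries shared few cell barcodes, and no member shared one with a member of another library. A doublet caller marked 117 members, and 285 members held a UMI of a mural (pericyte or smooth muscle) gene. Over the members' summed UMIs, the list of 8 neutrophil genes reached 1306, 488, 2506, 9825, 15.5 and 133 CPM, and that of 6 erythroid and platelet genes 8652, 5563, 104, 130, 3.09 and 185 CPM. The lists of pericyte, smooth muscle, fibroblast, macrophage, cardiomyocyte, lymphocyte and Schwann cell genes reached at most 433 CPM in any library. The list of 8 endocardial genes had 149, 140, 163, 136, 603 and 173 CPM. RNA of other cells was thus present in the members, most of all neutrophil RNA in KO at 24 h after ligation and hemoglobin RNA in the sham libraries.

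Trpm4, the gene targeted in the KO, gave 33, 24, 4, 5, 3 and 0 UMIs in the members. That is 12.9 CPM (exact 95% Poisson interval 8.91 to 18.2) in WT sham and 5.90 CPM (3.78 to 8.78) in KO sham. At 72 h the KO count of 0 allows up to 17.3 CPM. UMIs were thus counted in libraries labelled KO. The part of the gene that the allele removes is not given in the sources used here, and reads at the 3′ end outside a deletion would not check the label.

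Members made up 23.6% of the endothelial cells in WT sham (exact 95% binomial interval 21.9 to 25.4, 556 of 2351 cells) and 25.6% in KO sham (24.1 to 27.1, 830 of 3247). After ligation they made up 21.0% (18.0 to 24.3) in WT and 18.8% (16.1 to 21.8) in KO at 24 h, and 14.6% (10.5 to 19.5) in WT and 9.03% (6.04 to 12.9) in KO at 72 h. The shares after ligation were lower than the sham share of the same genotype, with intervals that did not overlap in KO at 24 h and in both genotypes at 72 h. The endothelial cells counted here included Apln Pgf cells, with at least 2 UMIs of these genes, which the rule keeps out of the members. These cells made up 1.83, 1.79, 13.3, 10.2, 18.5 and 8.36% of the endothelial cells. The share of members therefore also moves with theirs, and the part of this in the lower shares was not tested. Each group has 1 library, so no difference between conditions has a replicate check and none was tested, and the intervals hold counting error alone.

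The share depended on depth, because a deeper cell passes a limit of 2 UMIs more easily. With every cell thinned to 2000 UMIs the shares were 16.9, 16.5, 13.2, 14.0, 12.0 and 7.41%, and thinned to 1000 UMIs they were 8.79, 8.22, 5.61, 6.07, 6.63 and 4.82%. The sham shares stayed above the ligation shares of the same genotype at both depths. At 2000 UMIs the interval at 24 h after ligation in KO, 11.2 to 17.2%, overlapped that of sham, 15.1 to 17.9%. In WT the intervals of 10.5 to 16.3% at 24 h and 7.79 to 17.5% at 72 h overlapped the 15.3 to 18.7% of sham. KO at 72 h, with 3.61 to 13.2%, lay below its sham interval. At 1000 UMIs the intervals of all 4 ligation libraries overlapped that of the sham library of the same genotype. Thinning to 2000 UMIs left out 336, 387, 83, 134, 46 and 153 shallower endothelial cells. Of all kept cells, members were 10.4, 14.2, 4.44, 2.08, 0.840 and 0.598%, a share that also moves with the number of leukocytes in each sample.

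**Figure D1:**
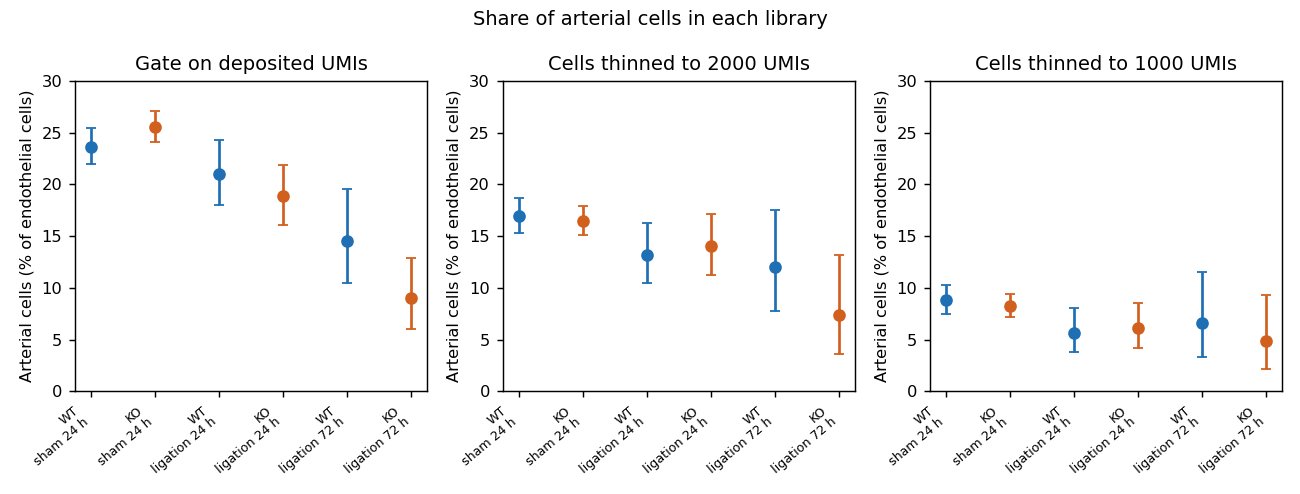
Each point is the share of arterial cells among endothelial cells in 1 library (%), with its exact 95% binomial interval, blue for WT and orange for KO. The panels show the deposited UMIs, cells thinned to 2000 UMIs and cells thinned to 1000 UMIs, and the share falls from 23.6% to 8.79% in WT sham between the outer panels.

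To see which other genes set these cells apart, the members were compared with the arterial-marker-negative cells of the same library. Arterial identity genes other than those of the rule were higher almost throughout, with 17 of 19 measured genes called and none lower, and their median log2 fold change was 1.30. The test was edgeR's quasi-likelihood test on summed counts with library as a block, called at an adjusted p (Benjamini-Hochberg) under 0.05. Of all 8551 genes tested, 346 (4.05%) were higher and 268 (3.13%) were lower in members, with a median log2 fold change of -0.01. The comparison cells held more mural RNA, as described below. The list genes and the members were chosen with knowledge of such markers, so these counts describe the cells and are not independent evidence of their identity.

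Among the connexins, Gja5 was close to absent in arterial-marker-negative cells, while pooled cells with 1 arterial UMI had 4.01 CPM. Gja5 had 40.0, 33.2, 33.9, 16.9, 30.9 and 23.1 CPM in members and 0.200, 0.141, 1.37, 1.37, 0 and 0 CPM in arterial-marker-negative cells. Every summed member value lay above every summed comparison value, and the log2 fold change was 6.21 (SE 0.37, adjusted p = 2.16e-07 by edgeR). Gja4 had 104, 90.5, 128, 88.5, 105 and 139 CPM in members against 25.4, 22.9, 39.7, 44.5, 40.9 and 24.5 CPM. Its log2 fold change was 1.73 (SE 0.14, adjusted p = 3.11e-06 by edgeR), and it was 3.47 once cells with a mural UMI were left out of both sets. Mural cells also make Gja4. Gja1, the gene of connexin 43, was only 0.44 higher on the log2 scale.

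The transcription factors Sox17 and Mecom were higher in members of every library. Sox17 had 323, 296, 379, 380, 297 and 219 CPM in members and 131, 128, 109, 105, 95.9 and 77.2 CPM in arterial-marker-negative cells, a log2 fold change of 1.47 (SE 0.10, adjusted p = 7.72e-07 by edgeR). Mecom, a zinc finger factor, differed by 1.30 (SE 0.09). The lowest member value of Sox17, in KO at 72 h, lay above the highest comparison value.

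Secreted signals and their receptors made up much of the rest of the list. Vegfc, a growth factor best known for lymphatic vessels, had 163, 105, 104, 97.9, 133 and 116 CPM in members against 20.2, 17.7, 21.2, 19.1, 11.0 and 5.65 CPM, a log2 fold change of 2.71 (SE 0.15, adjusted p = 1.80e-07 by edgeR). Cxcl12, the chemokine that binds Cxcr4, had 2689, 1971, 2212, 2011, 1042 and 1854 CPM against 1409, 1292, 1109, 1247, 868 and 770.1 CPM, a smaller difference of 0.74. Edn1, the precursor of the vasoconstrictor endothelin, differed by 1.03 (adjusted p = 0.0252 by edgeR) and was higher in 5 of 6 libraries. The call for Edn1 was lost when WT sham, KO sham or KO at 24 h after ligation was left out.

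Among the other members of the list, Efnb2, the ephrin that marks arteries against veins, differed by 1.20. Unc5b, a netrin receptor, differed by 1.48 and Bmx, a cytoplasmic tyrosine kinase, by 2.76. Btnl9, a butyrophilin-like protein, differed by 1.24 and was higher in 5 of 6 libraries, the exception being WT at 72 h with 64.9 against 66.0 CPM. Igfbp3, Tm4sf1 and Jag1 differed by 1.12, 0.79 and 1.39. Alpl, an alkaline phosphatase, differed by 2.21. Nrp1, a VEGF and semaphorin receptor, had -0.21 (adjusted p = 0.456 by edgeR) and Cxcr4 had 0.72 (adjusted p = 0.162 by edgeR), so neither was called. With these values, Sox17, Cxcl12 and Btnl9, the 3 label markers that the rule did not use, were all called higher in members, and Gja5 and Efnb2, general arterial markers, went the same way. Whether members came from arteries or from arterioles was not examined.

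Rbp7, a cellular retinol-binding protein, had 1151, 1251, 2375, 2005, 485 and 658 CPM in members against 295, 399.9, 525, 676, 164 and 162 CPM, a log2 fold change of 1.77 (SE 0.09, adjusted p = 1.44e-07 by edgeR). Its promoter is shown because Rbp7 and Hey2 were the only 2 of the 19 list genes with an entry whose promoter held the Rbpj core motif GTGGGAA or its reverse TTCCCAC. The motif was found in 6.38% of 32851 promoters of the same length. The 19 genes had 21 promoters, and a gene counted if any of its promoters matched. The share of all counts single promoters, a different unit. The sequence is from RefSeq, build GRCm38.p6, chr4:149454919-149455218, minus strand, from 250 bases before to 50 after the gene start, with the match at -149 in capitals.
Rbp7: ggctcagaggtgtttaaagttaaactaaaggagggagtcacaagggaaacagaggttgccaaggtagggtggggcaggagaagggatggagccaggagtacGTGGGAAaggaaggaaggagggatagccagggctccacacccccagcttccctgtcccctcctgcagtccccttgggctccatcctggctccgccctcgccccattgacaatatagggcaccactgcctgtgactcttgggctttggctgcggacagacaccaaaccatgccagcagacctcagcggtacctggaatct
A match is a description of these letters and not evidence of binding. Hey1, Stmn2 and Sox17 have no entry in the table used.

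**Figure D2:**
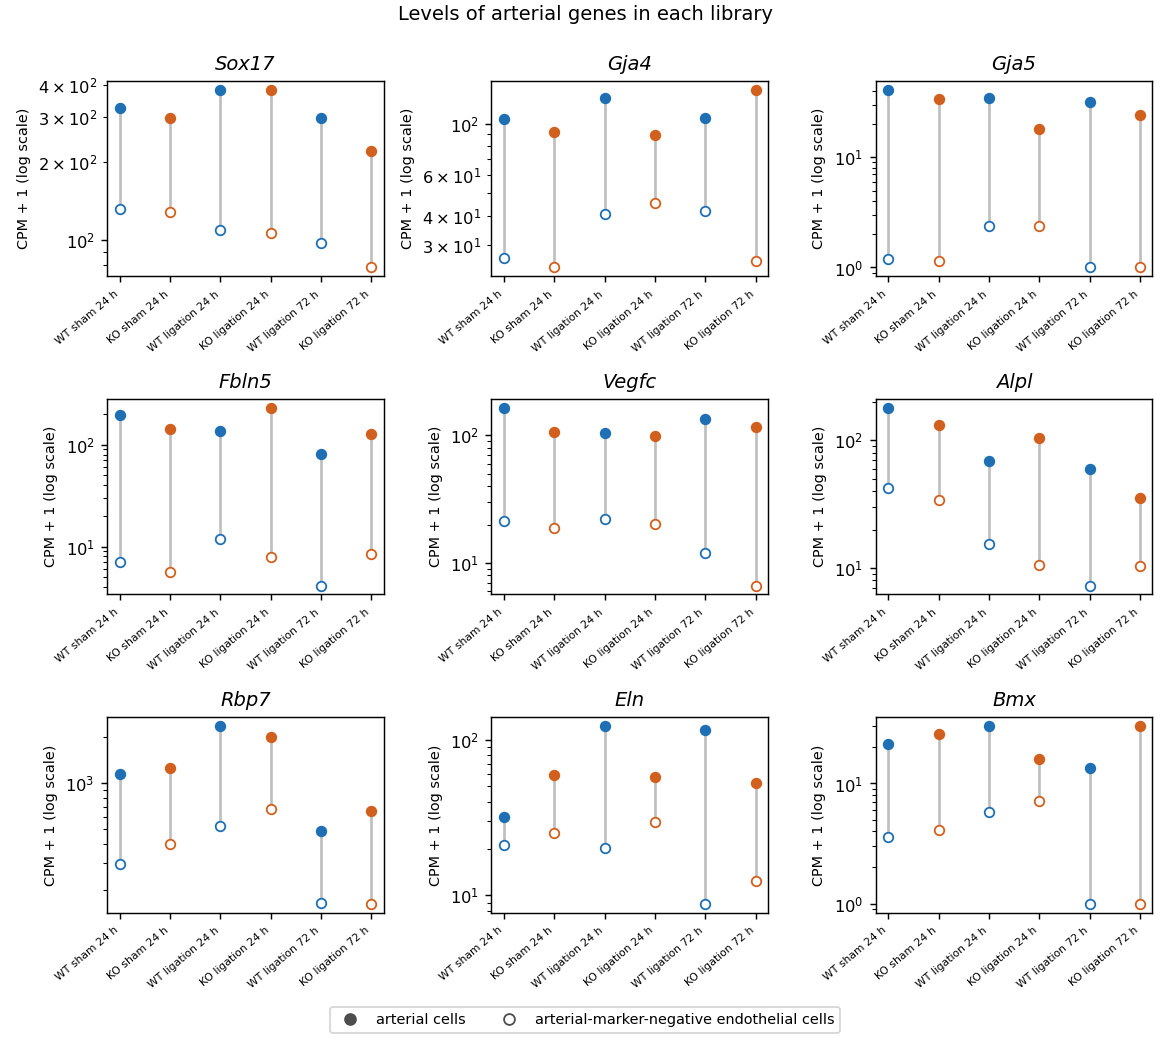
Levels of 9 arterial genes as CPM + 1 on a log axis, 1 column for each library, filled circles for arterial cells and open circles for arterial-marker-negative endothelial cells. The filled circle lies above the open one in every library for each of these genes.

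Of 17 measured Notch pathway genes 5 were higher and 2 lower in members, with a median of -0.03. The higher genes were the receptor Notch1 (0.69), the ligands Dll4 (0.75), Jag1 (1.39) and Jag2 (0.77), and the coactivator Maml2 (0.53, adjusted p = 0.0274 by edgeR), whose call was lost without either sham library, without WT at 24 h after ligation and with mural cells out (adjusted p = 0.0756 by edgeR). Jag1 had 76.5, 58.3, 64.2, 65.9, 71.1 and 57.8 CPM in members, against 26.0, 19.99, 36.2, 26.0, 9.43 and 30.1 CPM in arterial-marker-negative cells. Every member value of Jag1 lay above every comparison value. Rbpj itself (-0.18) and the target Hes1 (-0.33) were not called. Notch3, the receptor of mural cells, was lower by -3.23, and its level in members was at most 5.49 CPM.

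Genes of the elastic fibre and vessel wall matrix were the second group to stand out, with 8 of 16 higher, 2 lower and a median of 0.50. Fbln5, which links elastin to the cell surface, had 193, 141, 136, 228, 80.4 and 127 CPM in members and 5.99, 4.65, 10.9, 6.84, 3.14 and 7.53 CPM in arterial-marker-negative cells. The log2 fold change of 4.67 (SE 0.17, adjusted p = 3.03e-09 by edgeR) was the largest rise among the genes named by the rule. Eln, the elastin gene, had 31.0, 58.0, 121, 56.5, 114 and 52.0 CPM against 20.2, 24.2, 19.1, 28.7, 7.86 and 11.3 CPM, a log2 fold change of 1.46 (SE 0.26, adjusted p = 0.00343 by edgeR). The lowest Eln value of members, in WT sham, was close to the highest comparison value, and the 2 WT libraries after ligation were the highest.

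The other higher matrix genes were Fbln2 (1.03), the microfibril protein Fbn1 (0.60), Ltbp4 (0.96), which binds latent TGF-beta, the laminin chain Lamb2 (0.40), the heparan sulfatase Sulf1 (1.46) and the clotting protein Vwf (0.88). The lower genes Emilin1 (-0.67) and Bgn (-1.02) are also made by mural cells. With cells holding mural UMIs left out, Emilin1 was no longer called (nor was it without KO sham), and Bgn turned to 0.52 and was not called. The call for Vwf was lost without KO sham, WT at 24 h or KO at 72 h after ligation, that for Fbn1 without either sham library or WT at 24 h, and that for Lamb2 without KO sham or WT at 24 h. Col18a1, a basement membrane collagen outside this list, differed by 1.77 (SE 0.26).

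Vasoactive and flow-responsive genes were higher in 8 of 18 cases and lower in 1, with a median of 0.40. Klf2 (0.52) and Klf4 (0.71), which rise under laminar flow, were both higher. Klf2 had 1456, 1740.5, 2133, 1798, 1354 and 1339.9 CPM in members, above the comparison cells of the same library in all 6. Trpv4, a calcium-permeable TRP channel, had 27.5, 32.5, 23.0, 54.6, 34.0 and 17.3 CPM in members against 6.99, 6.19, 7.52, 11.6, 4.72 and 3.77 CPM, a log2 fold change of 2.12 (SE 0.17, adjusted p = 2.33e-06 by edgeR). All member values of Trpv4 were above all comparison values. The enzyme Ace (0.62), the receptor S1pr1 (0.59), the taurine transporter Slc6a6 (0.89), Gja1 and Edn1 were also higher. The call for Ace was lost with mural cells out (0.46, adjusted p = 0.0672 by edgeR). Ednrb, an endothelin receptor, was lower (-0.93), with 45.9, 56.8, 70.2, 41.4, 37.1 and 69.3 CPM in members. The call for Ednrb was lost without WT sham or without WT at 24 h after ligation.

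Capillary genes were lower or level. Of 19 measured genes 5 were lower and none higher, with a median of -0.28. Car4, a surface carbonic anhydrase of capillaries, had 222, 379, 647, 512, 55.6 and 69.3 CPM in members and 403, 548, 755, 607, 181 and 113 CPM in arterial-marker-negative cells, a log2 fold change of -0.63. Aplnr, the apelin receptor, was lower by -0.95, and Slc28a2, Fabp5 and C1qtnf9 by -0.60, -0.45 and -0.58. Leaving out WT sham ended the calls for Car4, Slc28a2, Fabp5 and C1qtnf9, and leaving out KO sham ended the latter 3. The call for Fabp5 was also lost with mural cells out (-0.39, adjusted p = 0.132 by edgeR). The members nevertheless had much capillary RNA. Cd36, for example, stood at 3119, 4018, 6204, 3970, 742 and 1219 CPM in members and 3276, 3875, 4421, 3452, 1789 and 1141 CPM in the comparison cells.

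Of 13 venous genes 1 was higher, Vwf, and 4 were lower, among them Nr2f2 (-0.73), Selp (-1.46) and Bgn. Nr2f2, a factor of venous identity that mural cells also make, turned to 0.045 with mural cells out. Of 17 genes of leukocyte adhesion and cytokines, Icam2 was higher (0.38), and Selp, Ccl2 (-1.88), Ccl7 (-1.57), Cxcl9 (-1.53) and Il1r1 (-0.60) were lower. The calls for Ccl2, Ccl7 and Il1r1 were lost with mural cells out. Selp, Bgn and Nr2f2 were not called when any 1 library other than WT at 72 h was left out, nor was Il1r1 without either sham library.

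**Figure D3:**
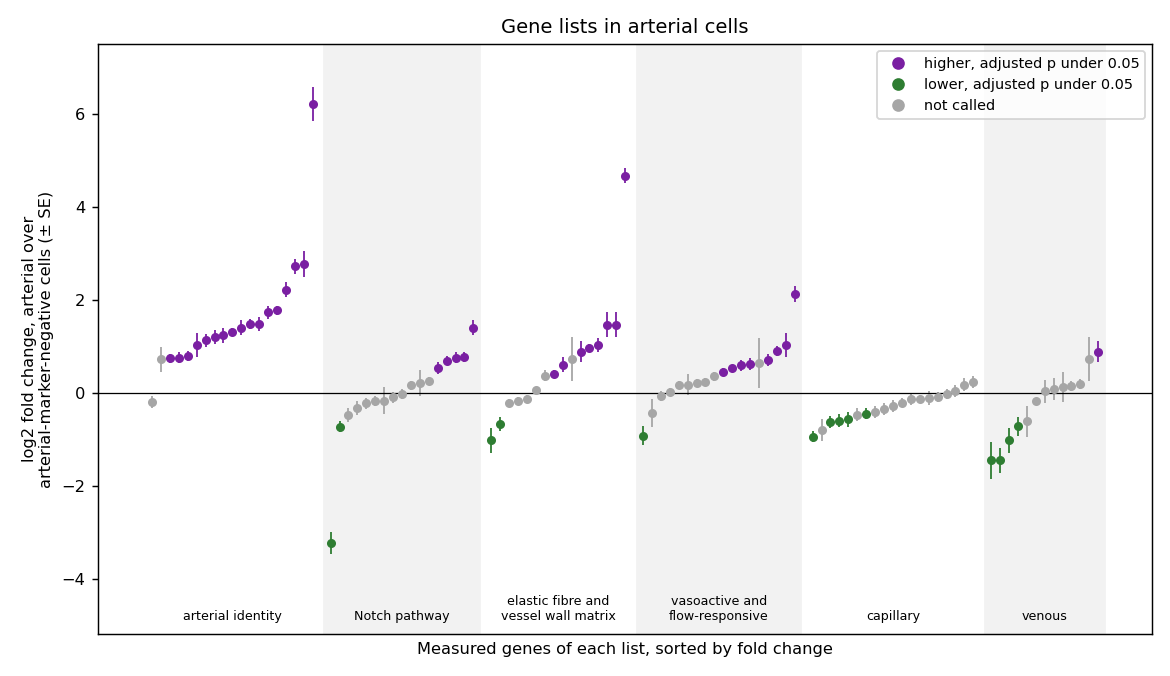
Each point is the log2 fold change (± SE) of 1 listed gene between arterial and arterial-marker-negative cells, sorted within its list. Purple points are called higher, green points lower and grey points are not called, and the arterial identity list has 17 purple points of 19.

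Beyond the lists, the largest rises by the named-gene rule included St8sia6 (2.34), a sialyltransferase, Amd1 (2.11), an enzyme of polyamine synthesis, and Glul (1.83), glutamine synthetase. Glul had 333, 227, 268, 279, 189 and 243 CPM in members and 77.9, 65.0, 77.3, 77.3, 73.9 and 45.2 CPM in arterial-marker-negative cells. Every summed member value of Glul lay above every summed comparison value. Smad6, an inhibitor of BMP signalling, differed by 1.68, Cdk19 by 1.79, Atp13a3, a polyamine transporter, by 1.75, Pi16 by 1.69, Hs3st1 by 1.64 and Igfbp5 by 1.59 (adjusted p = 0.0209 by edgeR). The call for Igfbp5 was lost without WT sham or WT at 24 h after ligation. It was seen in 19, 29, 5, 4, 7 and 1 members, and in WT at 24 h after ligation 1 member held 90.2% of its UMIs. Ptprr (1.46) and Htra1 (1.45), a secreted protease, closed the list of 20.

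The largest falls were Kcnj8 (-4.53), Vtn, Abcc9 and Pdgfrb of pericytes, and Acta2, Tagln and Tpm2 of smooth muscle, with log2 fold changes of -2.99 to -3.69, with Gm13889, Ndufa4l2 and Spp1. Kcnj8 reached 56.9, 45.0, 203, 234, 89.6 and 73.4 CPM in arterial-marker-negative cells and at most 18.8 CPM in members. All 8 measured pericyte markers and 5 of 6 smooth muscle markers were lower. These genes could not be measured once cells with mural UMIs were left out. Spp1, a secreted phosphoprotein also made by macrophages, had -1.21 without them and was not called.

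The genes whose level most resembled the summed Hey1, Sema3g and Stmn2 over the sums of 4 endothelial sets in 6 libraries (20 sums of at least 20 cells) were Fbln5 (Pearson r = 0.949), Nebl, Vegfc, Col8a1, St8sia6, Glul, Tpgs2, Amd1, Eogt and Jag1 (0.832). Members were selected for UMIs of Hey1, Sema3g and Stmn2, and arterial-marker-negative cells for their absence. The selection itself thus set the sums of members and of these cells apart on this level. A high r can therefore restate the differences between members and these cells given above, and is not independent evidence. The sums also share libraries, and the likeness is a description without a test.

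Against the 339 Apln Pgf endothelial cells (at least 2 UMIs of these angiogenic genes), 836 of 5902 genes were higher in members (14.2%) and 824 lower (14.0%). Arterial identity genes were higher in 12 of 17 cases and capillary genes in 16 of 19, with none lower in either list. Fbln5 differed by 5.08, Alpl by 4.97, Rbp7 by 4.11 and Klf4 by 3.22. Klf4 had 296, 380, 528, 318, 207 and 318 CPM in members, against 32.9, 46.5, 89.2, 31.3, 11.6 and 13.2 CPM. Dll4 (0.39, adjusted p = 0.236 by edgeR) was not called.

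Hypoxia and glycolysis genes were lower in 10 of 14 cases in members than in Apln Pgf cells, and 9 of 19 interferon-induced genes were higher. With cells holding mural UMIs left out, 3 of these 9 interferon-induced genes and 9 of the 10 hypoxia and glycolysis genes were still called. The interferon calls lost were those of Gbp2, Ifit1, Ifit2, Ifit3, Irf1 and Xaf1. Angpt2, which destabilises vessels, was lower by -3.47 and the peptide Adm by -4.82. The smooth muscle gene Myh11 was also lower, by -6.22, with 1905, 1517, 489.6, 304, 142 and 422 CPM in Apln Pgf cells. The comparison set therefore held smooth muscle RNA. Leaving out the cells with mural UMIs, which also dropped KO at 72 h for too few cells, gave 702 higher and 773 lower genes, among them 583 of the 836 and 590 of the 824. All 12 arterial identity and all 16 capillary genes were still called higher.

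Against Npr3 endothelial cells, an endocardial set with at least 2 UMIs of Npr3, only the sham libraries had enough cells. Of 9489 genes 1016 were higher in members (10.7%) and 949 lower (10.0%). These calls rest on 2 libraries, 1 of each genotype, and DESeq2 called 320 higher and 409 lower. Arterial identity genes were higher in 13 of 19 cases, with a median of 2.45, and lower in 3, which were the tyrosine kinase gene Bmx (-4.35), Tm4sf1 (-0.88) and Nrp1 (-0.75). Sox17 had 323 and 296 CPM in members and 0 and 10.0 CPM in Npr3 cells, and Cxcl12 had 2689 and 1971 against 116 and 25.1 CPM. Sema7a, a membrane semaphorin, had 144 and 135 CPM in members and no UMI in Npr3 cells. Dach1, a factor known from coronary artery growth, had 100.02 and 87.8 CPM and no UMI there. Capillary genes were higher in 18 of 19 cases and venous genes lower in 11 of 13. Vwf and Plvap, both of the venous list, were far lower in members. Vwf had 47.5 and 59.3 CPM in members against 1701 and 1722 CPM. Plvap, a protein of fenestrated endothelium, had 12.2 and 22.6 against 1142 and 1305 CPM. Vwf and Bmx were thus higher in members than in arterial-marker-negative cells and far lower than in Npr3 cells.

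Members that passed the rule by different genes also differed. Cells with at least 2 UMIs of Stmn2 (1091 in all 6 libraries) were compared with members without Stmn2 (396), but only in the 4 libraries at 24 h. There they numbered 407, 518, 50 and 68 against 88, 190, 69 and 41. The limit of 2 arterial UMIs forces each member without Stmn2 to hold at least 2 UMIs of Hey1 and Sema3g together, which Stmn2-high cells need not hold. Stmn2-high cells had more elastic matrix and vessel wall RNA, with 5 of 13 genes of that list higher and 1 lower. Of 7 measured venous genes 3 were higher and 0 lower, and Vwf and Mgp belong to both lists. Of 5256 genes 67 were higher (1.27%) and 22 lower (0.419%). Their median depths were 3968, 4223.5, 5295 and 3179.5 UMIs against 3621, 3596.5, 4680 and 3431 UMIs. With cells of at least 2000 UMIs only, 70 genes were higher and 23 lower, and Dll4 (-0.54) was no longer called.

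In a fit chosen after seeing the data, both sides were held to at least 2 UMIs of Hey1 and Sema3g together, which left 166, 190, 26 and 21 Stmn2-high cells. Those cells had median depths of 4484.5, 4331.5, 6252 and 3167 UMIs. It called 113 genes higher and 47 lower, among them 44 of the 67 and 14 of the 22. The 5 matrix genes and the 4 arterial identity genes that were higher, Gja4, Gja5, Jag1 and Vegfc, were all called again. The 2 arterial identity genes that were lower, Dll4 and Unc5b, were not, with -0.04 (adjusted p = 0.988 by edgeR) and -0.20 (adjusted p = 0.781 by edgeR). The lower levels of Dll4 and Unc5b below were therefore not seen between cells that passed the same limit on Hey1 and Sema3g. Stmn2-high cells still held at least 2 UMIs of Stmn2 beyond this limit, so their minimum number of arterial UMIs was higher. In the pooled cells, Gja4, Gja5, Vegfc and Fbln5 had 126, 44.8, 147 and 201 CPM at 3 or more arterial UMIs. At exactly 2 they had 27.3, 4.40, 57.7 and 44.5 CPM. The part of the arterial UMI number in the renewed calls was not tested.

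Eln had 36.4, 75.8, 261 and 87.2 CPM in Stmn2-high cells of WT sham, KO sham, WT ligation and KO ligation, and 0, 20.3, 24.1 and 42.9 CPM in Stmn2-negative cells. The log2 fold change was 2.47 (SE 0.31, adjusted p = 4.14e-04 by edgeR). Vwf had 59.7, 85.8, 86.9 and 79.9 CPM against 10.4, 7.90, 45.5 and 0 CPM (2.39). Vegfc, with 182, 124, 158 and 149 against 81.0, 50.8, 42.8 and 21.5 CPM (1.45), and Fbln5, with 215, 166, 241 and 294 against 78.4, 95.9, 58.8 and 78.7 CPM (1.31), were also higher. For Vwf, Vegfc and Fbln5 the lowest Stmn2-high value lay above the highest Stmn2-negative value.

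Connexin genes went in opposite directions. Gja5 had 47.8, 42.2, 48.3 and 25.4 CPM in Stmn2-high cells against 10.4, 13.5, 26.7 and 7.15 CPM (1.55, adjusted p = 0.00706 by edgeR), and Gja4 (0.80) and Jag1 (1.14) were higher too. Gja1, in contrast, had 136, 103, 125 and 134 CPM against 225, 194, 297 and 157 CPM, a log2 fold change of -0.85 (SE 0.13, adjusted p = 0.00143 by edgeR). With the same limit on both sides Gja5 had 2.58, Gja4 1.67, Jag1 1.87 and Gja1 -0.56, all called. The ligand Dll4 had 131, 109, 122 and 87.2 CPM against 175, 153, 273 and 157 CPM (-0.64), and Unc5b was also lower (-0.64). Gja5 and Gja1 therefore went in opposite directions in each of the 4 libraries. The calls for Gja4 and Unc5b were lost without WT sham or without WT at 24 h after ligation, for Unc5b also without KO sham and with mural cells out, and that for Dll4 without WT at 24 h. Sox17 (0.14) was not called and had 329, 291, 434 and 378 against 272, 310, 321 and 372 CPM.

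Other genes higher in Stmn2-high cells were Igfbp5 (2.85), Pi16 (2.19), the growth factor Igf2 (2.01), the adhesion molecule Vcam1 (1.84), Ptgs1 (1.87), an enzyme of prostanoid synthesis, AU021092 (1.80), Emp3 (1.64), Hs3st1 (1.64), Trpv4 (1.22), Fbln2 (0.87), Klf4 (0.68), Slc6a6 (0.54) and Thbd (0.48). Igfbp5 rested on few cells. Of its UMIs in all members of these 4 libraries, the highest member held 53.3, 16.9, 90.2 and 87.5%. Mgp, an inhibitor of calcification, was higher (1.78) in 3 of 4 libraries. The capillary genes Car4 and Cd300lg were lower by -0.49 each, and Col4a2 by -0.39. Sept4 (-0.68), Apoe (-0.62), Scgb3a1, Lnx1, Vwa1 and Lpar6 were also lower. Cardiomyocyte markers were lower in 4 of 5 cases, with a median of -1.42. Of these Myl2 (-1.55), a ventricular muscle gene, was lower in every library, with 284 CPM in Stmn2-negative cells of KO sham. With doublets left out none of the 4 was called, and Myl2 had -0.44 (adjusted p = 0.452 by edgeR). Hspa1a (2.87) rested on WT after ligation, with 952 CPM, and was not called without that library. WT after ligation also decided the calls for Klf4, Emp3 and Cd300lg. The calls for Car4, Col4a2, Lnx1, Lpar6, Scgb3a1, Slc6a6, Thbd, Trpv4 and Vwa1 were each lost without at least 1 of the 4 libraries, and that for Myl2 without KO sham. With mural cells out Car4, Cd300lg, Lpar6, Slc6a6 and Vwa1 were not called. With the same limit on both sides Vcam1 (0.68), Thbd (0.12), Klf4, Emp3, Apoe, Scgb3a1, Lpar6 and Vwa1 were not called.

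**Figure D4:**
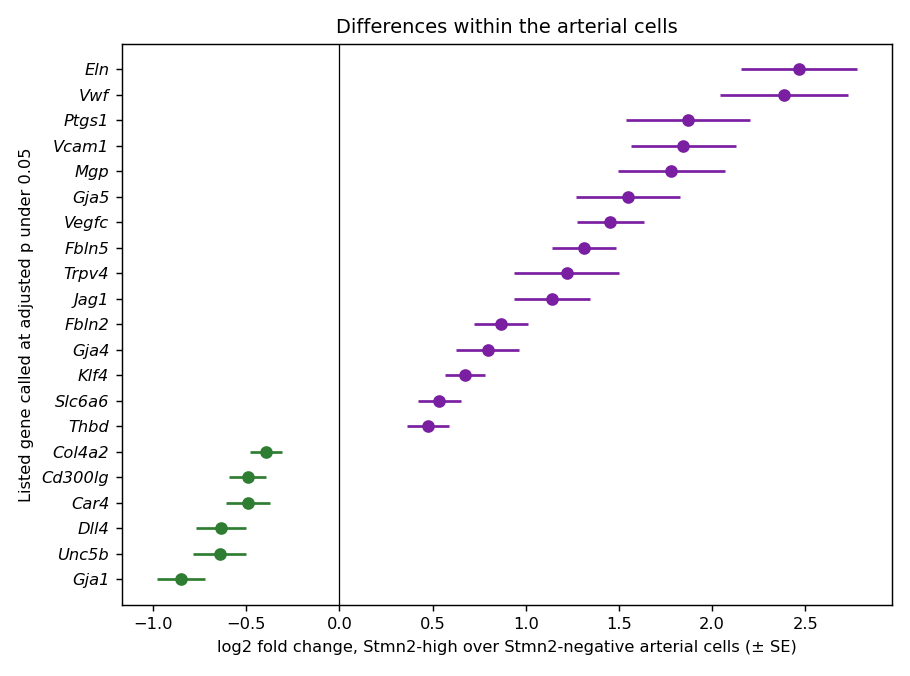
Log2 fold change (± SE) between Stmn2-high and Stmn2-negative arterial cells for the genes of the arterial, Notch, matrix, vasoactive, capillary, venous and angiogenic lists called at an adjusted p under 0.05, purple for higher and green for lower. Eln (2.47) and Vwf (2.39) lie at the upper end, and Gja1 (-0.85) at the lower end of these lists, with Unc5b and Dll4 above it.

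At 24 h after ligation the members of both genotypes had more RNA of the growth arrest gene Cdkn1a and less of clock genes than at sham. A gene was counted as different if it had at least 50 UMIs over the 2 libraries and a ratio of at least 2-fold, which is a rule of size and not a test. Members with a UMI of Stmn2 made up 84.2, 77.1, 51.4, 70.7, 86.5 and 88.9% of the members in the 6 libraries. The mix of members thus differed between libraries, and its part in the ratios of conditions and genotypes was not tested. In WT 155 of 7076 genes were higher (2.19%) and 201 lower (2.84%). In KO 287 of 7825 were higher (3.67%) and 362 lower (4.63%). Of 7007 genes measured in both genotypes, 36 (0.514%) were higher and 36 (0.514%) lower in both.

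Cdkn1a, an inhibitor of the cell cycle induced by p53, had 104, 309.8, 969, 717, 124 and 104 CPM and was seen in 114, 468, 126, 116, 19 and 9 members. The log2 ratio of ligation at 24 h to sham was 3.23 (exact 95% interval 3.02 to 3.43) in WT and 1.21 (1.04 to 1.38) in KO. The KO sham level was itself above that of WT sham, by a log2 ratio of 1.58 (1.39 to 1.78). Arterial-marker-negative cells had 93.0, 247, 685, 631, 156 and 194 CPM, the same order of libraries at 24 h. Il4ra, a cytokine receptor chain, was higher by 1.39 in WT and 1.65 in KO, and Upp1, a uridine phosphorylase, by 1.38 and 1.64. Upp1 stayed at 133 and 150.2 CPM at 72 h, whereas Cdkn1a stood at 124 and 104 CPM.

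The 10 clock genes measured in WT included 7 lower after ligation, with a median of -1.76, and of 9 in KO 4 were lower, with a median of -0.92. Dbp, a rhythmic transcription factor, had 415, 68.9, 37.5, 9.41, 49.5 and 40.4 CPM. Tef, a relative of Dbp, had 101, 35.2, 21.8, 11.3, 15.5 and 11.6 CPM. Per3, a period gene, had 71.0, 25.8, 17.0, 7.53, 21.6 and 40.4 CPM. All 3 were highest in WT sham, and their lowest values were in KO at 24 h after ligation. Those values rest on few counts, 5 UMIs for Dbp and 6 for Tef, and do not rank the ligation libraries. The same genes were lower in 7 and 5 cases in arterial-marker-negative cells, so the lower levels were not particular to the arterial cells. The hour of the day at which each heart was taken is not given in the sources used here.

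Promoters of clock genes are shown because these genes moved together. The E-box CACGTG, bound by Clock and Arntl, was in the promoters of Ciart, Cry1, Per1 and Tef, 4 of the 14 clock genes with an entry, and in 7.15% of all 32851 promoters. The D-box TTATGTAA (reverse TTACATAA), bound by Dbp and Tef, was in that of Per3, 1 of 14, and in 0.938% of all. The 14 genes had 19 promoters, and a gene counted if any of its promoters matched. The shares of all count single promoters, a different unit. The 2 motifs do not overlap in these sequences. The sequences are from RefSeq, build GRCm38.p6, with the motif in capitals: Tef at chr15:81802423-81802722 on the plus strand with the match at -127, and Per3 at chr4:151044616-151044915 on the minus strand with matches at -205 and -158.
Tef: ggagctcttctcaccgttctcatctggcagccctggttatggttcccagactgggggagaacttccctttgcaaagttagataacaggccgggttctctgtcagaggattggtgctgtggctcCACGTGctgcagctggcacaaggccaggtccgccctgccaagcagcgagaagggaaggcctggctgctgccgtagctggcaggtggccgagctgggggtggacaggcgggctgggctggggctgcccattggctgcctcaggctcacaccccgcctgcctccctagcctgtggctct
Per3: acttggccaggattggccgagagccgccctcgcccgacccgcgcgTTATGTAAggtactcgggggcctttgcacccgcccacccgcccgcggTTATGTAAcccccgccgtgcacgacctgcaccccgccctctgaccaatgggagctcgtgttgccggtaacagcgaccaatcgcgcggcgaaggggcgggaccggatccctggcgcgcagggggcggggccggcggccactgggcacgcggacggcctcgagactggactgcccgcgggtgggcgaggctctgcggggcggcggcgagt
Tef had a second listed start with the E-box at -138. These matches are a description of the letters only.

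Arterial identity genes were about level at 24 h. In WT Rbp7 was higher (1.05) and Alpl (-1.40) and Cxcr4 (-1.47) were lower among 19 genes, and in KO none of 19 passed 2-fold. Sox17 had ratios of 0.23 (0.04 to 0.42) in WT and 0.36 (0.14 to 0.58) in KO, and Gja4 had 0.31 and -0.03. Sox17, Gja4, Gja5 (-0.24 and -0.97), Fbln5 (-0.51 and 0.69) and Vegfc (-0.64 and -0.11) were all within 2-fold of sham. Eln had a ratio of 1.97 (1.53 to 2.41) in WT and -0.04 (-0.64 to 0.51) in KO. These intervals hold counting error only, with 1 library per group, and the difference between genotypes was not tested. The capillary genes Car4 (1.54), Timp4 (1.48), Gpihbp1 (1.25) and Lpl (1.12) were higher in WT and were within 2-fold in KO (0.43, 0.15, 0.57 and 0.02). Aplnr was lower in both (-1.45 and -2.17). In the comparison cells the same WT ratios of Car4, Timp4, Gpihbp1 and Lpl were 0.91, 0.52, 0.66 and 0.53.

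Parts of the stress and inflammatory lists were above sham. Of the immediate early and heat shock list 3 of 18 were higher in WT, with a median of 0.65, and 9 of 19 were higher and 1 lower in KO, with a median of 0.49. The summed level of this list stood at 2982 and 4831 CPM at sham and 24 h in WT, and at 3329 and 4526 CPM in KO. Averaged over cells, with each cell weighing the same, 6 were higher in WT and 8 in KO. In arterial-marker-negative cells the order was the other way, with 8 of 18 higher in WT and 5 of 19 in KO. Atf3, a stress-induced factor, had ratios of 2.23 and 2.48, whereas Fos had -0.45 and 2.55, and 0.55 in WT by the mean over cells. Of 15 leukocyte adhesion and cytokine genes 2 were higher and 1 lower in WT, and 5 higher and 1 lower in KO. Lcn2, an iron-binding defence protein, had 12.9, 31.2, 119, 350.2, 0 and 0 CPM, and Cxcl2, a neutrophil-attracting chemokine, had 168, 114, 412, 1107, 0 and 34.7 CPM. Both genes are also made by neutrophils, whose marker sum in members was 9825 CPM in KO and 2506 CPM in WT at this time. The part of that RNA in these ratios was not tested.

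The lowest ratios were those of hemoglobin genes, which belong to red cells. Hbb-bs had 7062, 4276, 4.84, 13.2, 0 and 75.1 CPM in 40, 73, 4, 3, 0 and 7 members. In the sham libraries 1 cell held 22.2% of its UMIs in WT and 27.1% in KO. Hbb-bt, Hba-a1 and Hba-a2 were also lower in both genotypes, and since the alpha-globin genes are almost the same in sequence, the split of reads between them is uncertain.

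At 72 h after ligation the members had less RNA of capillary genes than at 24 h, and in WT more RNA of proliferation genes. In WT 205 of 3645 genes were higher (5.62%) and 500 lower (13.7%), and in KO 95 of 2311 were higher (4.11%) and 233 lower (10.1%). In both genotypes 42 of 2255 were higher (1.86%) and 101 lower (4.48%). The members at 72 h numbered 37 and 27, so a few deep cells weigh heavily in the sums. The mean over cells, in which each cell weighs the same, is therefore given beside the counts of each list and for many of the named genes. These comparisons share the 24 h libraries with those of ligation against sham.

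Of 19 capillary genes in WT 16 were lower and 2 higher at 72 h, with a median of -1.79. In KO 12 of 16 were lower, with a median of -1.37. By the mean over cells 7 were lower and 2 higher in WT, with a median of -0.73, and 8 were lower in KO, with a median of -0.92. Timp4, an inhibitor of metalloproteinases, had 344, 643, 963, 714, 37.1 and 46.2 CPM, Lpl had 449.5, 592, 979, 601, 74.2 and 139 CPM, and Cd36 had 742 and 1219 CPM at 72 h. The 72 h values of Timp4 and Lpl lay below all others, sham included. Pparg, a regulator of lipid genes, was lower by -2.51 in WT and -2.47 in KO. Averaged over cells, Timp4 had -2.87 and -3.14, Lpl -2.20 and -2.18, Cd36 -2.05 and -1.15 and Pparg -1.44 and -1.82. The exceptions were Aplnr, with 229 and 173 CPM at 72 h and a ratio of 2.86 in WT, and Fabp5, with 2599.8 and 1721 CPM and 1.30. In arterial-marker-negative cells the same lists had 5 lower and 1 higher in WT and 11 lower in KO.

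Arterial identity genes were lower in 8 of 16 cases in WT, with a median of -0.76, and in KO 4 of 15 were lower and 1 higher, with a median of -0.41. Averaged over cells, 3 were lower and 1 higher in WT, and 2 lower and 1 higher in KO, with medians of -0.13 and -0.09. In WT these were Btnl9 (-3.24), Rbp7 (-2.29), Dll4 (-1.71), Efnb2 (-1.63), Mecom (-1.56), Unc5b (-1.27), Nrp1 (-1.21) and Cxcl12 (-1.09). In KO Rbp7 (-1.61), Btnl9 (-1.18), Alpl (-1.58) and Edn1 (-1.84) were lower. Sox17, Gja4 and Vegfc had WT ratios of -0.35, -0.29 and 0.35 and KO ratios of -0.79, 0.65 and 0.24, all within 2-fold. The mean over cells gave smaller WT values for Unc5b (-0.13), Cxcl12 (-0.14), Efnb2 (-0.52), Dll4 (-0.62) and Nrp1 (-0.83), so these 5 were under 2-fold in it, while Btnl9 (-2.03), Rbp7 (-1.22) and Mecom (-1.37) were not. In KO it gave -0.74 for Btnl9 and -0.28 for Alpl. Of the Notch genes 6 of 10 were lower in WT, among them Notch1 (-1.19), Rbpj (-1.79) and Hes1 (-1.92), and none of 7 in KO. Averaged over cells, 3 of the 10 were lower in WT and 1 of the 7 in KO, and Notch1 had -0.49 in WT.

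Among the genes that were higher at 72 h in both genotypes, Tmsb10, an actin-binding peptide, had 859, 870.5, 877, 702, 3169 and 3361 CPM and was seen in 35 of 37 and 25 of 27 members. Col18a1 had 82.0, 59.3, 66.6, 35.8, 247 and 277 CPM, and Vwf had 47.5, 59.3, 55.7, 41.4, 223 and 167 CPM. Tmsb10 was thus seen in nearly all members at 72 h. Its log2 ratios were 1.85 in WT and 2.26 in KO, and 1.31 and 1.38 by the mean over cells. Col18a1 had 1.89 and 2.95, and 1.08 and 1.80 by the mean over cells. Vwf was seen in 7 and 9 members at 72 h, and 1 cell held 55.6% of its UMIs in WT and 69.0% in KO. Without the highest cell of each library its ratios fell from 1.998 and 2.02 to 1.39 and 1.23.

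All 5 measured proliferation genes in WT and both in KO were higher, as they were in arterial-marker-negative cells. The medians were 2.36 and 1.53 in members and 2.21 and 2.22 in those cells. By the mean over cells 4 of the 5 were higher in WT, and 0 of the 2 in KO. Stmn1, a relative of Stmn2 that is abundant in cycling cells, had 167, 185, 110.2, 122, 566 and 462 CPM, in 16 and 9 members at 72 h. With the highest cell of each library left out, its ratios were 1.87 in WT and 1.64 in KO, against 2.36 and 1.92 with it, and averaged over cells they were 1.18 and 0.49. Hmgn2 (2.37 and 3.00), Selenoh (2.54 and 2.52) and H2afz (2.22 and 1.89) were also higher in both genotypes. By the mean over cells Hmgn2 had 1.71 and 2.43, Selenoh 1.64 and 1.76 and H2afz 1.11 and 0.89. Venous genes were higher in 6 of 10 cases in WT, led by Plvap, which had 454 CPM in 13 members against 13.3 CPM at 24 h. Plvap is also on the endocardial list. In KO 1 of 5 venous genes was higher, Vwf, and 1 lower, Lrg1, with a median of -0.26, and Plvap had 121 CPM in 5 members. By the mean over cells 6 of the 10 venous genes were higher in WT, with a median of 1.40. In KO 1 of the 5 was higher and 1 lower by that mean, with a median of 0.05. In arterial-marker-negative cells 1 of the 10 was higher and 2 were lower in WT.

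**Figure D5:**
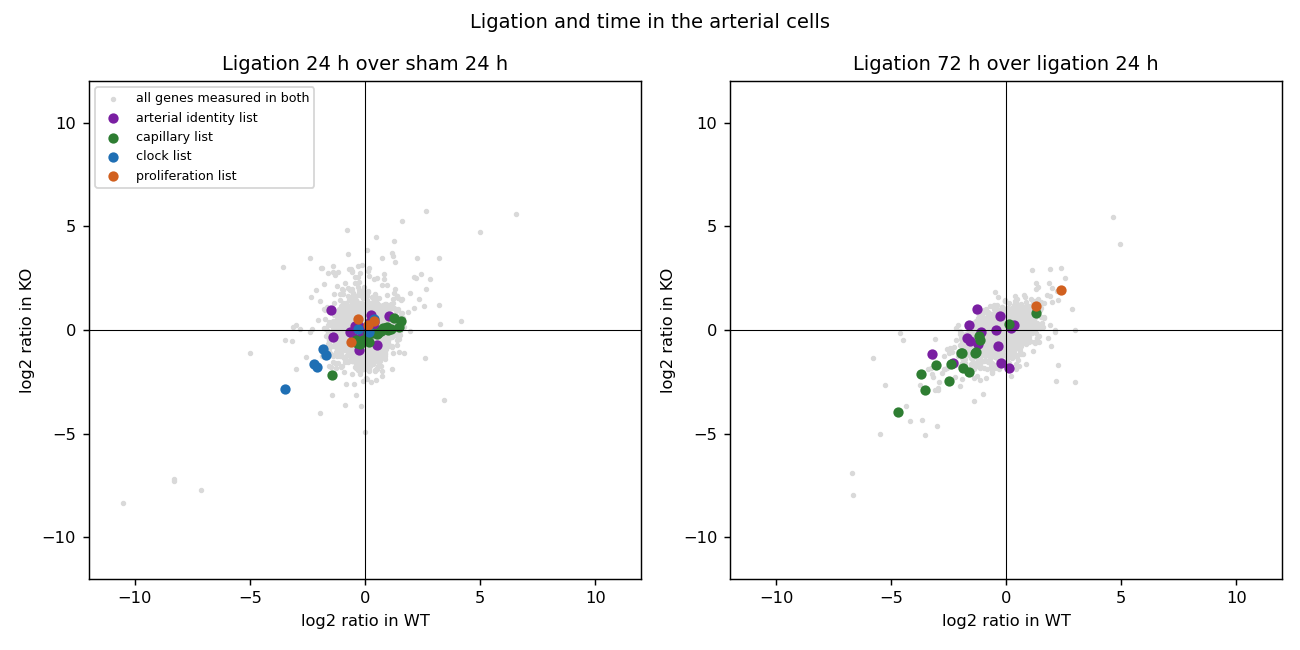
Log2 ratio in WT (x axis) and KO (y axis) for genes measured in both, ligation 24 h over sham on the left and ligation 72 h over 24 h on the right, grey for all genes and coloured for 4 lists. Clock genes lie at the lower left on the left panel, and capillary genes at the lower left on the right panel.

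Between genotypes the members differed in clock genes at sham and in neutrophil and cytokine genes at 24 h after ligation. At sham 62 of 8786 genes were higher in KO (0.706%) and 105 lower (1.20%). At 24 h after ligation 120 of 4203 were higher (2.86%) and 90 lower (2.14%), and at 72 h 30 of 1580 were higher (1.90%) and 41 lower (2.59%). Of 1551 genes measured in all 3 conditions, 0 were at least 2-fold higher in each and 0 lower in each. These comparisons share libraries with those of ligation and time.

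At sham 8 of 12 clock genes were lower in KO and 1 higher, with a median of -1.28. Dbp differed by -2.59 (-2.79 to -2.40), Tef by -1.52 (-1.82 to -1.22), Nr1d2, a nuclear receptor of the clock, by -1.10 and Per3 by -1.46. Arntl, which peaks opposite to Dbp, was higher by 3.18 (2.004 to 4.67), with 2.35 CPM in WT and 21.4 CPM in KO. Arterial-marker-negative cells gave the same counts, 8 lower and 1 higher. Of the 19 arterial identity genes at sham none passed 2-fold, and the same holds for the capillary, Notch, matrix and vasoactive lists. Of 9 cardiomyocyte genes 4 were higher in KO sham members, and 2 by the mean over cells.

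Hspb1, a small heat shock protein, had 758, 1583, 920.4, 1794, 417 and 341 CPM, a ratio of 1.06 (0.99 to 1.14) of KO to WT at sham and 0.96 (0.82 to 1.10) at 24 h after ligation. At 72 h its ratio was -0.29 (-0.76 to 0.16). The KO level of Hspb1 was above that of WT in both 24 h comparisons, and arterial-marker-negative cells gave 0.78 and 0.80 there. Igfbp5 was lower in KO sham by -1.46, but was seen in 19 and 29 members only, and without the highest cell of each library the value was -0.63. At 24 h after ligation 5 of 12 leukocyte adhesion and cytokine genes were higher in KO and none lower, Ccl2 (2.15), Lrg1 (1.82), Lcn2 (1.56), Cxcl2 (1.43) and Vcam1 (1.04). When averaged over cells 4 were higher. Of 6 neutrophil markers 5 were higher in KO members, with a median of 1.86, and 6 of 6 in arterial-marker-negative cells, with a median of 2.35.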

How the data were processed

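The authors deposited a table of raw UMI counts per library. Cell Ranger 6.0.0 and mm10 are named in the submitters' processing notes. The annotation is not given in the sources used here. The deposited tables held 34940 cells and 199708815 UMIs. Cells with at least 1000 UMIs, at least 200 genes and at most 20% mitochondrial UMIs were kept, and doublets (Scrublet in scanpy 1.11.5, 0.8% per 1000 cells) were marked and left out only as an alternative. The members and the gene lists were chosen with earlier results of these data known. The symbols Aldoa and Ccl21a each belong to 2 gene IDs and were left out of the lists.

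Within each library the counts of all cells in a set were added up. Sets of at least 20 cells were compared with edgeR 4.0.16 (R 4.3.3; quasi-likelihood, TMM, library as a block, Benjamini-Hochberg adjusted p under 0.05), leaving out genes of the rule. The block pairs 2 sets of cells from 1 library, that is from the same mice. The code was tested on simulated data. Conditions and genotypes have 1 library each, so they were compared without a test, by the ratio of CPM with exact 95% intervals and a 2-fold rule at 50 UMIs or more over both libraries. A count of 0 was set to 3 counts for a bound. Intervals and floors cover counting error only.

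Named genes outside the lists were the called genes with the largest log2 fold changes, in the same direction in every library, with at least 50 CPM in the higher set: 20 rises and 10 falls against arterial-marker-negative cells, and 10 each in the other tests. For conditions they were the 10 largest ratios in each direction by the smaller of the WT and KO values, at 100 CPM or more and at least 0.5 of the level of non-endothelial cells. For genotype they were those past 2-fold in all 3 conditions and the 4 largest in each direction at sham. A gene of a list could be named as a member of that list. Some results are not reported here.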

Additional observations from a re-analysis of the deposited data

Results flagged for a closer look

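Several genes of the members had ratios of opposite sign in WT and KO beyond their counting intervals, each from 1 library per group, and in no case was the difference tested. From sham to 24 h after ligation, Csf3r, a receptor of neutrophils, had a log2 ratio of -1.40 in WT and 3.10 in KO, and Dcn, a fibroblast proteoglycan, -3.56 and 3.03. The highest cell held 58.2% of the Dcn UMIs in KO at 24 h. Hspa1b, a heat shock protein, had 3.45 and -3.37, with 71.7% of its UMIs at 24 h in 1 WT cell. Mgp had 2.59 and -1.36, with 46.0% in 1 WT cell, and without the highest cell of each library it had 2.16 and -1.67. Cytl1, a secreted protein of the endocardial list, had 1.18 and -1.90 and was seen in 2 and 1 members after ligation.

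From 24 h to 72 h after ligation, Lrg1, a secreted glycoprotein of inflammation and vessels, had 2.18 in WT and -2.47 in KO, seen in 8 and 3 members at 72 h. Unc5b had -1.27 in WT and 1.03 in KO, in 7 and 9 members, and -0.13 in WT when averaged over cells. These differences were not tested. The neutrophil marker sum of the members, 2506 CPM in WT and 9825 CPM in KO at 24 h after ligation, moved with Csf3r, and its part was not tested.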

How the results depend on the processing

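The alternatives that leave out a cell of each library, or hold both sides of the Stmn2 split to the same limit on Hey1 and Sema3g, were chosen after seeing the data. Shares of arterial cells among endothelial cells were 8.79, 8.22, 5.61, 6.07, 6.63 and 4.82% in cells thinned to 1000 UMIs, 16.9, 16.5, 13.2 and 14.0% in the first 4 libraries at 2000 UMIs, and 17.4, 17.7, 14.1, 11.4% in the same 4 and 5.69% in KO at 72 h with at least 3 arterial UMIs. Against arterial-marker-negative cells, genes higher and lower were 530 and 702 without a filter on low counts, 83 and 44 without the replicate block, and 149 were lower with mural cells out. Against Apln Pgf cells, 1329 were lower without the filter, and 539 and 448 were higher and lower without the block. Against Npr3 cells DESeq2 gave 320 and 409. For the Stmn2 split the counts were 23 and 7 with DESeq2, 170 and 53 without the filter, 5 and 0 without the block, and 113 and 47 with the same limit on both sides, while 38 were lower with doublets out and 13 with mural cells out. Leaving out 1 library gave 191 to 372 higher and 110 to 384 lower against arterial-marker-negative cells, 623 to 838 and 573 to 887 against Apln Pgf cells, and 31 to 62 and 12 to 23 for the Stmn2 split. No such value could be had against Npr3 cells, where it leaves 1 library.

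The 2-fold counts moved with the UMI minimum. With at least 20 UMIs, at least 100 UMIs and members thinned to 1000 UMIs, genes higher after ligation at 24 h were 320, 82 and 55 in WT and 636, 135 and 63 in KO, and genes lower 502, 81 and 70 in WT and 659, 154 and 159 in KO. At 72 h against 24 h they were 432, 126 and 20 higher and 1136, 224 and 42 lower in WT, and 313, 39 and 7 higher and 665, 108 and 42 lower in KO. For KO against WT they were 153, 29 and 36 higher and 262, 42 and 28 lower at sham, 317, 51 and 16 higher and 349, 26 and 10 lower at 24 h after ligation, and 174, 7 and 4 higher and 218, 12 and 3 lower at 72 h. With doublets out, 182 were higher in KO at 24 h after ligation and 53 in KO against WT. By the mean over cells 47 were higher and 100 lower in KO against WT at 72 h, and 18 higher with at least 3 arterial UMIs. No paired analysis was possible because each genotype and condition has 1 library, so 2 groups share only 1 replicate number, and an additive model of genotype over the 3 conditions was not run.

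With mural cells out, Bgn (0.52) and Nr2f2 (0.045) reversed against arterial-marker-negative cells, Emilin1 (0.30) and Nr2f2 (0.98) against Apln Pgf cells, and Ccl2 (1.06) against Npr3 cells. In KO at 24 h after ligation, Cpe reversed to -0.95 with doublets out and -0.68 without the highest cell, and Tppp3 to -0.46 when thinned. The cause was not tested.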
